A study of Mus musculus with 22 samples.

Results

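Cluster 0 of the whole-cell data was the largest group of tanycytes in the hypothalamus of male ob/ob mice 5 days after a single intracerebroventricular injection. Its cells were taken by the cluster number that the authors deposited for each cell, with no threshold on any gene. It held 9509 of the 54890 whole cells, or 17.3%. The paper states that neuronal cells were removed from this set. The other tanycyte clusters were smaller, with 3318 cells in cluster 7 and 1577 in cluster 10.

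The mice were 11 weeks old, carried the ob/ob genotype, which lacks leptin, and ate chow. The FGF1 group (n = 6) received 3 µg of fibroblast growth factor 1 into the brain ventricle. The vehicle group (n = 6) received PBS and was pair-fed, so it was given the amount of food that the FGF1 mice ate. Each library was the hypothalamus of 1 mouse, dissociated to whole cells and sequenced with droplet 3′ tags. Both groups share the lack of leptin, and food was rationed by the design in the vehicle group.

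Tanycytes are elongated glia that line the floor and lower walls of the third ventricle. They contact the ventricular fluid on one side and send a process to blood vessels or neurons on the other, take up and convert thyroid hormone, sense nutrients and hormones, and keep some features of neural progenitors. Alpha tanycytes lie along the wall beside the hypothalamic nuclei, and beta tanycytes lie on the ventral wall and floor near the median eminence.

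Each mouse contributed 167 to 1572 cells of cluster 0, with 198865 to 2431794 UMIs (unique molecular identifiers, each 1 captured transcript) summed over its cells. The median cell held 1084 to 2111 UMIs, depending on the mouse. FGF1 mouse 10 and vehicle mouse 35, which share the deposited batch number 5, had the deepest cells, at medians of 2111 and 1651 UMIs. In cluster 0, 123 cells shared their barcode sequence with another cell of the cluster, and no full barcode, with its suffix, was repeated. Unless stated otherwise, levels are CPM, the UMIs of a gene scaled to a common total of UMIs, of the summed cells of a mouse, scaled between mice by TMM, and folds are on the log2 scale with their standard error. TMM was not applied to levels in other clusters, to levels of cluster 0 compared as medians or ratios with them, or to summed marker levels.

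The defining genes of tanycytes were present. Over the 12 mice, before TMM scaling, Slit2, a secreted guidance protein, had a median of 563 CPM (range 509 to 672). Col23a1, a membrane collagen, stood at 551 CPM, Gpr50, an orphan receptor of the melatonin receptor family, at 524 CPM, and Crym, a cytosolic thyroid hormone binding protein, at 428 CPM. In endothelial cells (cluster 3) the same genes were at medians of 45.1, 53.5, 28.2 and 32.3 CPM. At least 1 of the 5 genes Gpr50, Slit2, Pkib, Crym and Col23a1 was found in 88.5% of the cells of cluster 0. With every cell thinned to 750 UMIs, it was found in 75.6% of these cells and in 8.10% of endothelial cells. Among genes at 50 CPM or more in cluster 0, the largest excess over all other cells was that of Pkib, an inhibitor of protein kinase A, at 89.0 against 17.1 CPM in pooled cells. Asb4, Necab2, Gpr50, Rax, Tshr, Apoa1, Slit2 and Lhx2 came next. Rax and Lhx2 are homeobox regulators of tanycyte identity, and Tshr is the receptor of thyrotropin. These are genes of the clustered cells themselves and are given as a description without a test.

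**Figure D1:**
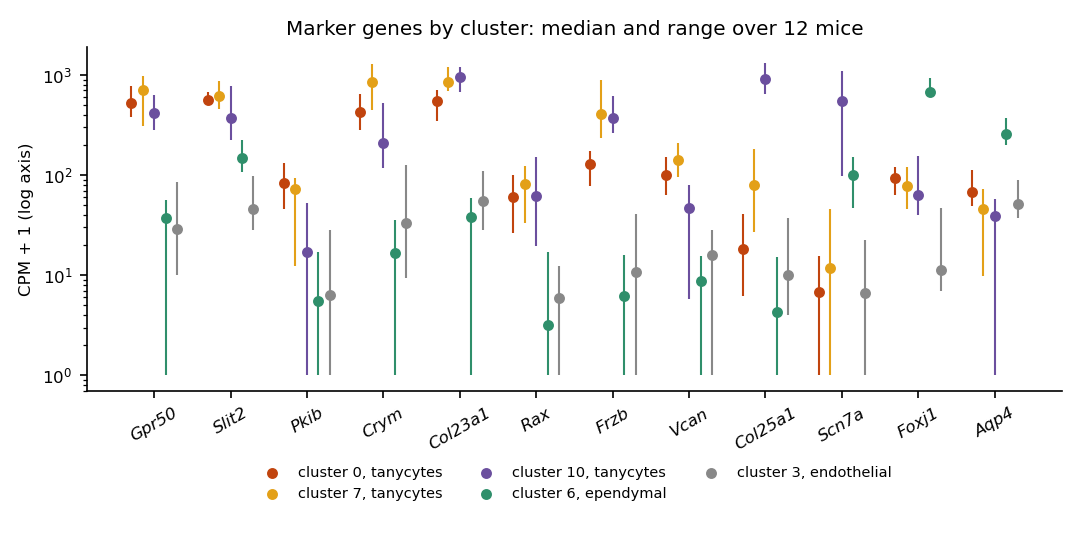
Levels of 12 marker genes in 3 tanycyte clusters, ependymal cells and endothelial cells. The y axis is CPM plus 1 on a log scale, points are medians and lines run from the lowest to the highest of the 12 mice (11 in cluster 7). Cluster 0 shares Gpr50, Slit2 and Rax with clusters 7 and 10, and lies far below cluster 10 in Col25a1 and Scn7a, at medians of 17.1 against 904 CPM and 5.75 against 551 CPM.

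Within the tanycytes, cluster 0 differed from its neighbours mostly in degree. Scn7a and Col25a1, which marked cluster 10, were nearly absent from it. Frzb, a secreted Wnt antagonist, had a median of 128 CPM in cluster 0, 402 CPM in cluster 7 and 369 CPM in cluster 10. Crym stood at 428, 851 and 206 CPM in clusters 0, 7 and 10, and Vcan, a matrix proteoglycan, at 99.95, 141 and 46.2 CPM. Dio2, the deiodinase that activates thyroid hormone, was low in cluster 0 at 25.5 CPM and reached 121 CPM in cluster 10. Pkib was highest in cluster 0, with 82.8, 71.6 and 15.9 CPM. The ranges over mice of clusters 0 and 7 overlapped for Pkib, Rax and Vcan and did not overlap for Frzb. Markers of ependymal cells (cluster 6) were lower in cluster 0, with Foxj1 at 93.1 against 670 CPM, Dynlrb2 at 375 against 1010.3 CPM, Rarres2 at 362 against 1832 CPM, Tmem212 at 31.4 against 1334 CPM and Ccdc153 at 20.4 against 1364 CPM. In endothelial cells these markers were at 10.3, 40.5, 142, 11.7 and 11.4 CPM, in the same order.

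The proportion of cells in cluster 0 varied widely between mice. It was 6.99% to 30.7% of the cells of an FGF1 mouse and 5.56% to 19.6% of those of a vehicle mouse. Cluster 7 held 0.293% to 20.1% of the cells after FGF1 (median 7.51%) and 0.953% to 6.44% after vehicle (median 1.49%). Its cells were deeper, with a median of 2123 UMIs against 1285 in cluster 0. The highest share in each group was that of FGF1 mouse 10 and vehicle mouse 35, whose cells of cluster 0 were the deepest. The part of depth in these shares was not tested. Cluster 0 made up 41.7% to 81.8% of the tanycytes of FGF1 mice and 53.9% to 87.5% of those of vehicle mice. The border between the clusters was drawn by the authors on the same genes that are compared here, so shares are given without a test. Whether cells moved between clusters and genes changed within them cannot be told apart from cluster 0 alone, and the counts were also made on clusters 0, 7 and 10 summed.

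The main question was how gene expression in these tanycytes differed between FGF1 and vehicle. At an FDR below 0.05 in edgeR's quasi-likelihood test, 249 genes were higher and 249 lower after FGF1 of 9441 tested, which is 2.64% in each direction and 5.27% in all. The levels of the 2 groups did not overlap for 184 of these 498 genes, against 2.56% of all genes tested (1.44% higher and 1.12% lower after FGF1). Most differences were moderate. The median log2 fold change was 0.55 among the higher and -0.78 among the lower genes, and 34 and 57 genes passed a change of 1. DESeq2 called 194 and 200, of which 178 and 189 were also called by edgeR. With clusters 0, 7 and 10 summed, 240 were higher and 293 lower, including 170 and 194 of the same genes. The number of calls depended on single mice. It fell to 119 higher and 115 lower without vehicle mouse 20, to 122 and 125 without vehicle mouse 25, to 120 and 133 without FGF1 mouse 7 and to 141 and 186 without FGF1 mouse 10. It rose to 319 and 413 without FGF1 mouse 28.

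The genes called were also set against unrelated cells. For each gene, the level in cluster 0 was set beside the lowest of the levels in endothelial cells (cluster 3), oligodendrocytes (cluster 2) and microglia (cluster 8), in the group in which the gene was higher. This measure was chosen after the data were seen. A called gene can pass 2 times through its own difference, since the group with its higher level was used. Of the lower genes, 184 of 249 (73.9%) were under 2 times that outside level, and 59 (23.7%) were at or below it. Of the higher genes, 125 of 249 (50.2%) were under 2 times it and 7 (2.81%) at or below it. Together 309 of the 498 called genes (62.0%) were under 2 times it, near the share of all tested genes, of which 63.3% were under 2 times it and 11.7% at or below it. RNA free in the suspension can enter every droplet, and its part in these levels was not tested.

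**Figure D2:**
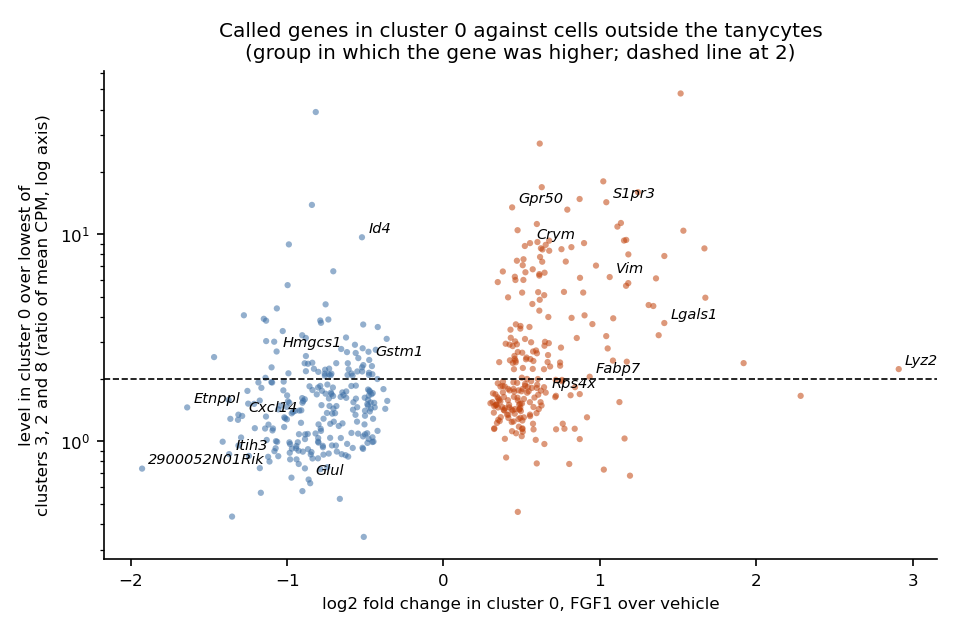
Fold change of the called genes against their level relative to unrelated cells. The x axis is the log2 fold change of FGF1 over vehicle in cluster 0, and the y axis is the ratio of the mean CPM in cluster 0 to the lowest mean of endothelial cells, oligodendrocytes and microglia, on a log scale. Each point is 1 called gene, orange where higher and blue where lower after FGF1, and 1 higher gene at 0 in an outside cluster is left out. The dashed line is at 2, and 184 of the 249 lower genes and 125 of the 249 higher genes lie below it.

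Several genes with a clear rise encoded cytoskeletal, membrane and calcium-binding proteins. Vim, the intermediate filament vimentin that tanycytes carry in their processes (chromosome 2, 13573927 to 13582826, GRCm38), had 619, 733 and 907 CPM as the lowest, median and highest of the FGF1 mice. In vehicle mice it had 276, 370.2 and 425 CPM. Every FGF1 mouse was thus above every vehicle mouse, and the log2 fold change was 1.06 ± 0.119 (edgeR FDR 1.46e-06). It stood 6.21 times above the outside level. Thinned to 750 UMIs, a median of 39.9% of cells per FGF1 mouse (34.7% to 44.5%) and 23.2% per vehicle mouse (18.7% to 26.9%) held a Vim UMI, and before thinning the group means were 58.1% and 37.0%. Endothelial cells make vimentin too, and their thinned medians were 31.8% and 21.4%. Before thinning, cells of cluster 0 held a median of 1377 UMIs after FGF1 and 1181 after vehicle, and endothelial cells 1314 and 1343.5.

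Cd44, the hyaluronan receptor (chromosome 2, 102811141 to 102901665), had 91.0, 107 and 159.7 CPM as lowest, median and highest after FGF1 and 38.3, 50.3 and 58.5 CPM after vehicle. The groups did not overlap, and the gene rose by 1.18 ± 0.139 (edgeR FDR 2.75e-06). It is nearly absent from endothelial cells, where a median of 1.24% of thinned cells per FGF1 mouse and 0.422% per vehicle mouse held a UMI, against 7.34% and 3.25% in cluster 0. The unthinned means in cluster 0 were 14.7% and 6.25%.

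Lgals1, galectin 1, a secreted lectin (chromosome 15, 78926725 to 78930465), had 52.0, 70.0 and 84.8 CPM after FGF1 and 22.0, 26.0 and 28.7 CPM after vehicle. The groups lay far apart, with a log2 fold change of 1.41 ± 0.157 (edgeR FDR 1.46e-06). In endothelial cells, which make Lgals1 as well, it was 0.06 (FDR 0.936), and the difference between the effects in cluster 0 and in endothelial cells was 1.36 ± 0.212 (FDR 3.58e-05 with the mouse as a block).

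Lgals1 and Cd44 are members of a wider list. Of 20 tested S100, annexin and galectin genes with Cd44, Emp1 and Emp2, 9 rose and none fell, where 2.64% of all tested genes rose, and the median log2 fold change was 0.50 against 0.00 over all genes. S100 proteins and annexins bind calcium, and several of them act at membranes and the actin cortex. In the FGF1 mice, the group in which they were higher, all 9 stood over 2 times above the outside level. That level is the lowest of the 3 outside clusters. Thinned, a median of 15.7% of cells of cluster 0 per FGF1 mouse and 7.85% per vehicle mouse held S100a11. In endothelial cells these were 15.8% and 13.8%. S100a6 was held by 94.4% of cells of cluster 0 and 22.2% of endothelial cells after FGF1. S100a11 had 195, 259 and 382 CPM after FGF1 and 84.3, 114 and 195 CPM after vehicle, overlapping only at the highest vehicle mouse, number 35 (1.17 ± 0.203, edgeR FDR 0.00371). Anxa2, which binds S100a10 in a complex at the membrane, had 197, 252 and 340.2 CPM against 157, 174 and 178 CPM, without overlap (0.62 ± 0.117, FDR 0.00167). S100a10 itself had 208, 291 and 432 CPM against 173, 185 and 296 CPM (0.61 ± 0.165, FDR 0.0355), and was no longer called in 8 of the 12 fits without 1 mouse. S100a6, the most abundant of the group, had a median of 5514 CPM after FGF1 and 3826 CPM after vehicle (0.47 ± 0.123, FDR 0.0228). Anxa5 (0.57), S100a16 (0.52) and Emp1 (1.41) also rose. Lgals3, with medians of 26.7 and 12.2 CPM, did not pass (1.45 ± 0.404, FDR 0.057), nor did Anxa1 (0.57) or S100a4 (0.47), and S100b, an astrocyte gene, was at -0.23 (FDR 0.392).

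The starts of these genes were searched for a short sequence. RefSeq start sites (GRCm38.p6) were matched for 7 of the 9, and for 4 of the 7 at least one window of 250 bases upstream held the AP-1 letters TGANTCA on either strand. The same letters were found for 362 of the 7341 tested genes with a window (4.93%), and for 2 of the 7 cholesterol synthesis genes with a window that fell. A pair of windows is shown, from chr3:93520246-93520495 for S100a11 and chr9:69453433-69453682 for Anxa2, both on the plus strand and read 5′ to 3′, with the matches in capitals.
S100a11: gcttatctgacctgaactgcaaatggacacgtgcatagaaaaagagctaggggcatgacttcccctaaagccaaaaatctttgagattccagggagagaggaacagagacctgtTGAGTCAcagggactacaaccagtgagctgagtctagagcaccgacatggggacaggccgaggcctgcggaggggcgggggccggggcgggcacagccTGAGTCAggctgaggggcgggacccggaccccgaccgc
Anxa2: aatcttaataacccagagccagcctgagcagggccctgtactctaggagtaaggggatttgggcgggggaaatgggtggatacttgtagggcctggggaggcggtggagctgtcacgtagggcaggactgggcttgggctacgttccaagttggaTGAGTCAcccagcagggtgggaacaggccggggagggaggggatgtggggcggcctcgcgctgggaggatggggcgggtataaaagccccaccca
A match to letters is a description of the window and not a measured site. Of 19 tested immediate early genes, which include the AP-1 subunits Fos (0.46) and Jun (0.25), none was called.

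**Figure D3:**
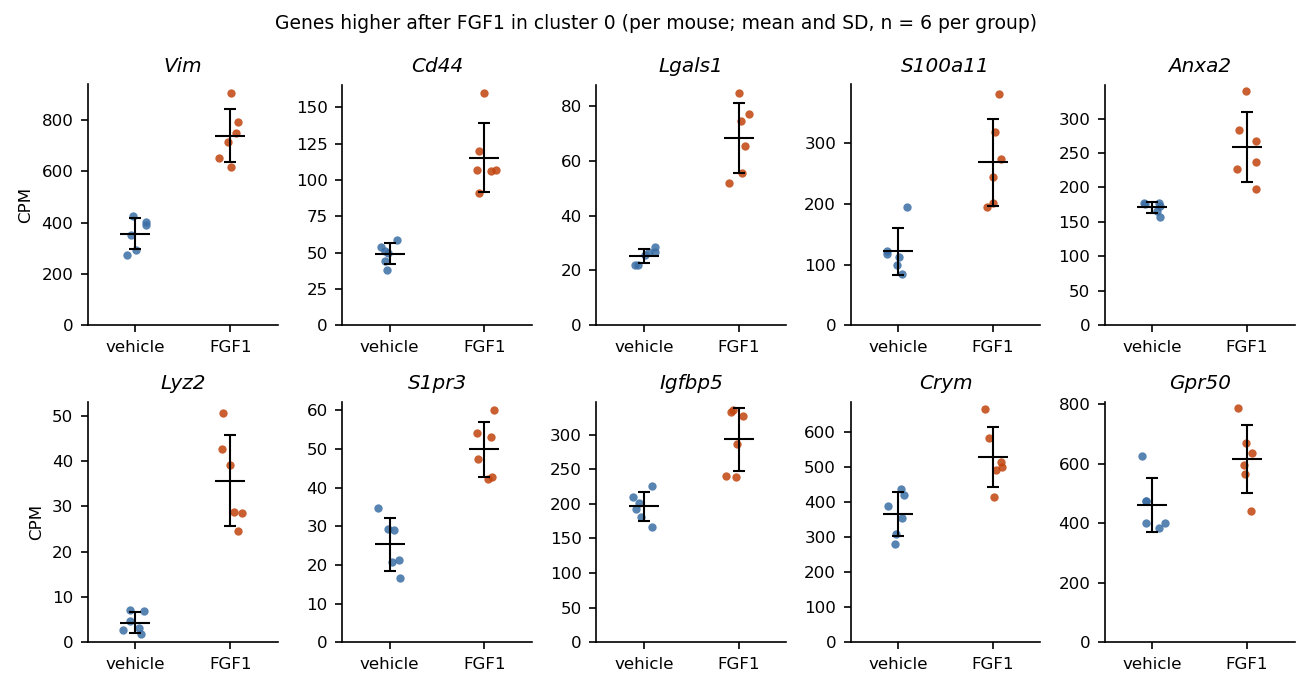
Levels of 10 genes that were higher after FGF1 in cluster 0. The y axis of each panel is CPM from 0, each point is 1 mouse, and the bar with whiskers is the mean ± SD (n = 6 per group). Vim, Cd44, Lgals1, Anxa2, Lyz2, S1pr3 and Igfbp5 do not overlap between groups, whereas S100a11, Crym and Gpr50 do.

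Genes that mark reactive glia in general rose in part. Of 7 tested members of the pan-reactive list, 4 rose and none fell (median log2 fold change 1.06), where 2.64% of all tested genes rose. Beside Vim and Cd44, S1pr3, a receptor of sphingosine 1-phosphate (chromosome 13, 51408639 to 51422797), had 42.2, 50.3 and 60.1 CPM after FGF1 and 16.8, 25.2 and 34.9 CPM after vehicle. It did not overlap (1.04 ± 0.172, edgeR FDR 0.000357). Cxcl10, an interferon-induced chemokine, rose by 2.28 ± 0.516 (FDR 0.0126) from very low levels, at medians of 13.6 and 1.46 CPM, with 1 high mouse in each group, and was lost without vehicle mouse 20 or 25 and with the tanycyte clusters summed. It was under 2 times the outside level. Without cells over 20% mitochondrial or ribosomal UMIs, or without cells with a microglia or macrophage marker UMI, Cxcl10 was not tested. Gfap, the filament of reactive astrocytes, had 40.4, 102 and 325 CPM after FGF1 and 40.1, 63.9 and 114 CPM after vehicle and did not pass (FDR 0.253), and neither did Serpina3n (FDR 0.277). Of the 8 tested members of the A1 list none passed, and of the 4 of the A2 list, Emp1 and S100a10 rose, both of which stand in the S100 list too.

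Lyz2, lysozyme of myeloid cells (chromosome 10, 117277331 to 117282321), had the largest fold of the 498 called genes, and its level is given beside that of other cells. It had 24.5, 34.0 and 50.6 CPM after FGF1 and 1.84, 3.86 and 7.19 CPM after vehicle, without overlap (2.91 ± 0.280, edgeR FDR 1.81e-07). In endothelial cells the means before TMM scaling were 39.15 CPM after FGF1 and 11.95 CPM after vehicle (1.70, FDR 0.0160). The TMM-scaled means in cluster 0 were 35.7 and 4.38 CPM. In microglia the means before TMM scaling were 499 and 134 CPM. Lyz2 was still called without the cells of cluster 0 that held any UMI of a microglia or macrophage marker. Its near-identical paralog Lyz1 was not analysed here. The microglial genes C1qa, C1qb and Csf1r were not called in cluster 0, and the summed level of the 6 microglia markers was 105 to 196 CPM after FGF1 and 61.4 to 127 CPM after vehicle. Their part in the Lyz2 result was not tested.

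Other genes with large folds came from varied functions. 1500015O10Rik, which encodes the secreted peptide precursor augurin, had 46.6, 94.2 and 101 CPM after FGF1 and 7.34, 26.7 and 58.5 CPM after vehicle (1.67 ± 0.265, edgeR FDR 0.00205). Cdh13, a cadherin without a cytoplasmic tail, rose by 1.38 ± 0.223 (FDR 0.000308), and Pipox, a peroxisomal oxidase of sarcosine, by 1.36 ± 0.285 (FDR 0.00778). All 3 were over 2 times above the outside level. 3300002A11Rik, an antisense transcript, had 26.6, 160.3 and 209 CPM against 32.4, 55.7 and 63.6 CPM (FDR 0.029), so 1 FGF1 mouse was below every vehicle mouse, and it was lost in 7 of the 12 fits without 1 mouse. Fabp7, the fatty acid binding protein of neural progenitors and glia, had 137, 159.6 and 195 CPM against 61.8, 83.4 and 125 CPM, without overlap (0.94 ± 0.140, FDR 0.000156). In FGF1 mice it stood at 2.05 times the outside level. In vehicle mice its means before TMM scaling were 87.8 CPM in cluster 0 and 70.6 CPM in endothelial cells.

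Some heat shock proteins rose as well. Of 15 tested heat shock genes, 4 rose and none fell, with a median of 0.19, where 2.64% of all tested genes rose. Hspa9, of the same family but not on the list, was called lower (-0.38, edgeR FDR 0.0486). Hspb8 had 22.2, 41.1 and 69.2 CPM after FGF1 and 11.6, 16.9 and 31.9 CPM after vehicle (1.18 ± 0.257, edgeR FDR 0.00812), and Hspb6, not on the list and overlapped by a predicted gene on the same strand, rose by 1.17 ± 0.270 (FDR 0.0132). The other 3, the lens and glial chaperone Cryab and the constitutive chaperones Hsp90ab1 and Hspa8, were under 2 times the outside level. Hspa8 lost its call in 13 of the 20 other fits, 9 of them without 1 mouse and 1 with the authors' batch as a block. The stress-induced Hspa1a and Hspa1b were at -0.04 and 0.01, and Hspa5, the chaperone of the endoplasmic reticulum, was at 0.09.

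Most genes that define tanycytes were not called. Of the 5 marker genes of cluster 0, Crym and Gpr50 rose and the other 3 were not called, where 2.64% of all tested genes rose. Of the 12 further tanycyte markers, 10 were tested and Vim alone was called, higher after FGF1. The summed level of these 12, before TMM scaling, was 1424 to 1793 CPM after FGF1 and 1005 to 1413 CPM after vehicle, without overlap. Vim is in that sum, at means of 714 and 356 CPM. Crym (chromosome 7, 120186380 to 120202111) had 415, 508 and 668 CPM after FGF1 and 281, 372 and 439 CPM after vehicle, so the groups overlapped slightly (0.55 ± 0.121, edgeR FDR 0.00569). It was called in all 12 fits without 1 mouse and not with clusters 0, 7 and 10 summed. Gpr50 (chromosome X, 71663667 to 71669257) had 442, 616 and 787 CPM against 383, 438 and 628 CPM (0.44 ± 0.127, FDR 0.0392). It lost the call in 9 of the 12 fits without 1 mouse, with DESeq2 and with the authors' batch as a block, with an FDR of up to 0.128. Slit2 (0.11 ± 0.0987), Pkib (0.28 ± 0.225) and Col23a1 (-0.23 ± 0.123) did not pass. Rax had 26.3, 46.3 and 63.7 CPM after FGF1 and 47.9, 75.5 and 97.3 CPM after vehicle and did not pass (-0.68 ± 0.204, FDR 0.0564). It was called lower in 7 of the 20 other fits, namely with the authors' batch as a block (-0.72, FDR 0.00367), with the tanycyte clusters summed, without batch 5 and without FGF1 mouse 21 or 28 or vehicle mouse 22 or 35. Lhx2, at medians of 146 and 163 CPM, had a log2 fold change of 0.01 ± 0.126, which turned negative under 4 of the 8 other settings. None of 14 tested transcription factors of the hypothalamus passed.

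In thyroid hormone handling, Crym was the only one of 10 tested genes called. Dio2, the activating deiodinase, had 26.3 and 25.1 CPM (-0.01 ± 0.311). Dio3, the inactivating deiodinase, had 0, 23.2 and 35.0 CPM after FGF1 and 0, 5.35 and 13.8 CPM after vehicle (1.91 ± 0.639, edgeR FDR 0.118). Of 5 tested retinoid genes none passed.

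Many genes of cholesterol synthesis fell. Of 23 tested genes of this pathway, 11 fell and none rose, where 2.64% of all tested genes fell, and the median log2 fold change was -0.65. Of the 12 that were not called, 11 also had a value below 0. Hmgcs1, which makes the HMG-CoA from which sterols are built (chromosome 13, 119690379 to 119708260), had 79.9, 108 and 121 CPM as lowest, median and highest after FGF1 and 178, 214 and 264 CPM after vehicle. The groups were well apart, with a log2 fold change of -1.07 ± 0.125 (edgeR FDR 2.75e-06) and a vehicle level 2.71 times the outside level. With cells thinned to 750 UMIs, a median of 7.64% of cells per FGF1 mouse and 14.9% per vehicle mouse held a Hmgcs1 UMI (13.1% and 22.98% as unthinned means), against 3.87% and 6.15% of endothelial cells.

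Sqle, the epoxidase that starts the sterol branch, had 26.6, 44.5 and 51.1 CPM after FGF1 and 59.4, 66.5 and 87.4 CPM after vehicle, without overlap (-0.62 ± 0.138, edgeR FDR 0.00652). Upstream of it, the isomerase Idi1 fell by 0.73 and squalene synthase Fdft1 by 0.76 on the log2 scale, each with overlapping groups.

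Further along, Msmo1, a sterol methyl oxidase, had 57.4, 81.1 and 112 CPM after FGF1 and 101, 135 and 147 CPM after vehicle, with overlap (-0.74 ± 0.143, edgeR FDR 0.00197). Cyp51 (-0.61), Nsdhl (-0.76), Sc5d (-0.78) and Dhcr7 (-0.99), which trim and reduce the sterol rings, were lower too. The genes that sense sterols were lower without passing: Srebf2, the regulator of the pathway, was at -0.45 ± 0.146 (FDR 0.0641) and Insig1 at -1.01 ± 0.291 (FDR 0.0737). Acat2 (-0.03) and Ebp (0.02) showed no difference beyond their error. Of the 11 that fell, 5 were under 2 times the outside level, among them Msmo1, Sc5d and Dhcr7. Leaving out 1 mouse at a time gave 8 to 12 called genes.

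The starts of the cholesterol synthesis genes that fell were searched too. RefSeq windows were matched for 7 of the 11 genes that fell. All 7 held the CCAAT letters on either strand within 250 bases upstream, as did 40.9% of the 7341 tested genes with a window, and 1 of the 7, Hmgcs1, held the core of the sterol regulatory element, CACCCCAC, found in 3.32% of those genes. In the windows of Hmgcs1 (chr13:119690101-119690350, plus strand), Idi1 (chr13:8885356-8885605, plus strand) and Msmo1 (chr8:64733579-64733828, minus strand), read 5′ to 3′, capitals mark both sets of letters, and ATTGG is CCAAT on the other strand.
Hmgcs1: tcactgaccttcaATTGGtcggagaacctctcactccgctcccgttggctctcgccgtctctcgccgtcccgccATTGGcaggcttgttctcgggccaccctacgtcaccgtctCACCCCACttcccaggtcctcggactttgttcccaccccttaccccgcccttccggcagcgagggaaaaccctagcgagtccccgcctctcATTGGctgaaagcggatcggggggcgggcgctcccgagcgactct
Idi1: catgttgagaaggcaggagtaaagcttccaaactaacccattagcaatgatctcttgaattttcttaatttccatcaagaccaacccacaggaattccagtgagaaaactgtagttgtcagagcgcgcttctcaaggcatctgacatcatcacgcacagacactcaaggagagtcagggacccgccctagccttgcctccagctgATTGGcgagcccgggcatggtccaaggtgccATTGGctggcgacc
Msmo1: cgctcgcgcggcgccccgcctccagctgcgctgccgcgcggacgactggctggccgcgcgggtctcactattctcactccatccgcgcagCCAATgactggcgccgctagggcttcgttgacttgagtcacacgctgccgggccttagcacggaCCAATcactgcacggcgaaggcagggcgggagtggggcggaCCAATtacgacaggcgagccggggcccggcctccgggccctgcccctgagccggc
The 3 windows hold 3, 2 and 3 CCAAT matches, the nearest of them starting 45, 14 and 55 bases before the gene start.

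Fatty acid synthesis was lower in part. Of 24 tested genes of fatty acid metabolism, 5 fell and 1, Fabp7, rose, with a median of -0.13. Of all tested genes, 2.64% fell and 2.64% rose. Scd2, the stearoyl desaturase of the brain, had 752, 1081 and 1315 CPM after FGF1 and 1377, 1689 and 2078 CPM after vehicle, without overlap (-0.71 ± 0.121, edgeR FDR 0.000577). Fasn, the fatty acid synthase, had 61.9, 93.4 and 106 CPM against 114, 125 and 134 CPM, also without overlap (-0.48 ± 0.124, FDR 0.0195). The elongase Elovl6 (-0.84) and the acyl-CoA ligases Acsl3 and Acsl6 (-0.48 and -0.55) fell as well, and Acss2, which makes acetyl-CoA from acetate and was not on the list, fell by 1.25 on the log2 scale (FDR 0.000317). The genes of fatty acid oxidation on the list did not pass, with Cpt1a at -0.14 and Acadm at 0.07. Ech1, an enzyme of this oxidation that was not on the list, was called higher (0.46, edgeR FDR 0.0363). Of the 5 lower genes only Fasn was over 2 times the outside level. The count of 5 fell to 1 without vehicle mouse 20, to 2 without FGF1 mouse 7 and to 3 without FGF1 mouse 21, vehicle mouse 25 or vehicle mouse 27.

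**Figure D4:**
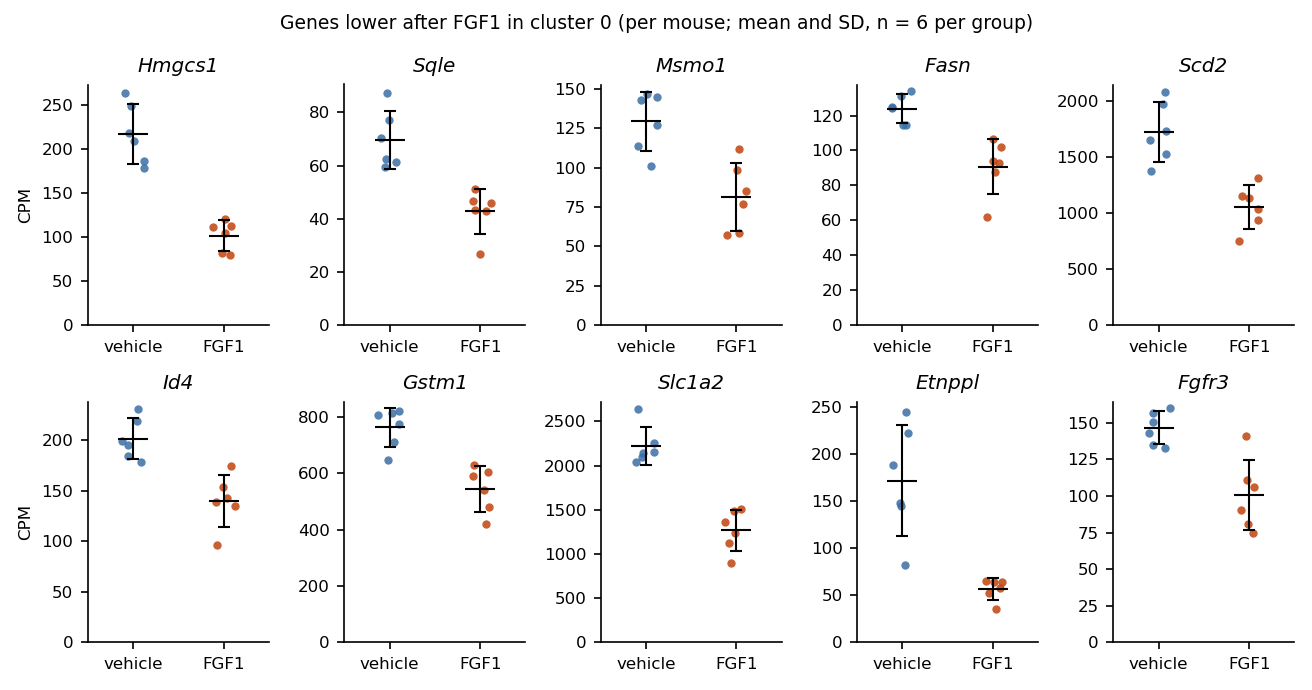
Levels of 10 genes that were lower after FGF1 in cluster 0. The y axis of each panel is CPM from 0, each point is 1 mouse, and the bar with whiskers is the mean ± SD (n = 6 per group). Hmgcs1, Sqle, Scd2, Fasn, Id4, Gstm1, Slc1a2 and Etnppl do not overlap between groups, whereas Msmo1 and Fgfr3 do.

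Astrocyte genes made up the other large fall, and most of them lay near the outside level. Of 8 tested genes of glutamate and GABA handling, 5 fell and none rose (median -0.59). Of 9 genes of water, potassium and lipoprotein handling, 4 fell and none rose (median -0.51), where 2.64% of all tested genes fell. Of the first list, 4 of 7 tested genes fell in cluster 7 and 4 of 7 in cluster 10. In ependymal and endothelial cells 2 of 7 and 3 of 7 fell. Medians there were -0.69, -0.71, -0.55 and -0.59. Of all tested genes in these clusters, 39 of 4027, 25 of 2159, 50 of 6734 and 37 of 6329 fell. In astrocytes (cluster 1), oligodendrocytes and microglia 0 of 7 were called (medians -0.09, -0.16 and -0.59). Of the second list, 1 of 9 tested genes fell in cluster 7, 4 of 8 in cluster 10 and 2 of 9 in ependymal cells. In endothelial cells and in microglia 1 of 9 fell, whereas 2 of 9 rose in astrocytes and 1 of 9 in oligodendrocytes. All 9 genes of both lists that fell in cluster 0 were under 2 times the outside level. Slc1a2, the main glutamate transporter of astrocytes, had 894, 1295 and 1505 CPM after FGF1 and 2037, 2147 and 2634 CPM after vehicle, without overlap (-0.80 ± 0.111, edgeR FDR 4.64e-05). In endothelial cells its means were 780 and 1309 CPM (-0.72, FDR 0.0155). Slc6a11, a GABA transporter, had 385, 425 and 533 CPM after FGF1 and 554, 764 and 909.8 CPM after vehicle, without overlap (-0.72, FDR 0.000275), and means of 341 and 612 CPM in endothelial cells.

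Etnppl, an enzyme that breaks down phosphoethanolamine, had 35.0, 60.6 and 64.6 CPM after FGF1 and 82.4, 168 and 245 CPM after vehicle (-1.64 ± 0.215, edgeR FDR 0.000387), at 1.46 times the outside level. Its means in endothelial cells were 48.0 and 119 CPM. Itih3, Agt and the long noncoding RNA 2900052N01Rik fell by 1.37, 1.07 and 1.93 and stood in the vehicle mice at 0.867, 1.00 and 0.738 times the outside level, with mean levels in astrocytes (cluster 1) of 2482, 1638 and 190.3 CPM. Of 3 tested neuron markers, 1 fell, Syt1 (-0.85). Among the genes with the largest folds, Nefl, a neurofilament, and the synaptic genes Rph3a and Snap91 fell by 1.31, 1.31 and 1.37, from vehicle medians of 41.4, 46.0 and 31.0 CPM, and lay at 1.27, 0.954 and 1.58 times the outside level. The summed level of 5 astrocyte markers in cluster 0 was 1423 to 2357 CPM after FGF1 and 2990 to 3831 CPM after vehicle, and that of 4 neuron markers 40.4 to 157 and 89.3 to 251 CPM. Slc1a2, itself called lower, is 1 of these 5 and has most of their summed level, 2 of the 5 were called (Slc1a2 and Agt), and Aqp4, the water channel of astrocytes, did not pass (0.27 ± 0.184, means of 81.7 and 65.4 CPM). Astrocytes (clusters 1 and 4) were 11.9% to 25.4% of the cells of FGF1 mice and 23.7% to 34.4% of those of vehicle mice. The summed levels of ependymal markers (513 to 1249 CPM after FGF1, 721 to 1250 CPM after vehicle), oligodendrocyte markers (1155 to 2171 and 783 to 2886 CPM) and blood markers (22.4 to 459 and 64.8 to 507 CPM) overlapped between the groups. The part of other cells in these results was not tested.

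Glul and Sparcl1 differed in their effect from endothelial cells. Glul, glutamine synthetase, had 381, 430.3 and 556 CPM after FGF1 and 629.9, 865 and 928 CPM after vehicle (-0.86 ± 0.116, edgeR FDR 3.56e-05). In endothelial cells it was at -0.09 (FDR 0.780), and the difference between the effects was -0.76 ± 0.0948 (FDR 6.45e-08). Its level in cluster 0 was 0.654 times the outside level, below the mean of each of the 3 outside clusters. Sparcl1, a secreted matrix protein, fell by 0.45 (edgeR FDR 0.0123) in cluster 0 and was at -0.08 in endothelial cells, a difference of -0.36 ± 0.0843 (FDR 0.0259).

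A smaller set of lower genes stood over 2 times above the outside level. Id4, an inhibitor of bHLH factors active in neural progenitors (chromosome 13, 48261228 to 48266026), had 96.6, 141 and 175 CPM after FGF1 and 178, 197 and 231 CPM after vehicle. The groups did not overlap (-0.52 ± 0.125, edgeR FDR 0.0123), and the vehicle level was 9.66 times the outside level. Gstm1, a glutathione transferase, had 421, 565 and 631 CPM against 646, 792 and 822 CPM (-0.47 ± 0.106, FDR 0.00694). Gclc, which starts glutathione synthesis, fell by 0.48, while 2 peroxiredoxins rose, Prdx2 by 0.48 and Prdx6 by 0.35. The last of these was lost in 10 of the 12 fits without 1 mouse and Gclc in 5. Cntfr, the receptor of ciliary neurotrophic factor, fell by 1.14 (FDR 0.00354) at 2.03 times the outside level. Of the 14 tested Notch and progenitor genes, Id4 and Id2 fell, where 2.64% of all tested genes fell. Id2 stood at 1.06 times the outside level and was lost in 9 of the 20 other fits. Sox2, Sox9 and Msi1 did not pass. The list does not hold the Notch pathway genes Nrarp (-1.11), Lfng (-0.81) and Mib1 (-0.43), all called lower and named after their values were seen. They stood at 0.798, 1.68 and 2.77 times the outside level.

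Of 9 tested FGF ligands, receptors and adaptors, Fgfr3 alone was called. The list does not hold Fgfbp3, an FGF-binding protein (-1.13, at 3.05 times the outside level), or Fgf13 (-1.16, at 1.81 times it), both called lower and named after their values were seen. Fgfr3 had 74.5, 98.2 and 141 CPM after FGF1 and 133, 147 and 160.1 CPM after vehicle (-0.50 ± 0.130, edgeR FDR 0.0196), was lost without FGF1 mouse 7 or vehicle mouse 20, and stood at 1.08 times the outside level. Fgfr1, at medians of 82.5 and 73.3 CPM and 2.59 times the outside level, did not pass (0.09 ± 0.124). Neither did Fgf10 and Fgf18, 2 ligands made by these tanycytes at medians of 58.7 and 51.8 CPM (0.24 ± 0.156) and 10.5 and 15.99 CPM (-0.68 ± 0.248). Of 7 tested genes of MAPK feedback and ETS factors, which FGF receptors induce, 0 passed and all 7 had values below 0 (median -0.29), with Etv1 at -0.64 (FDR 0.0628), Etv5 at -0.60 (FDR 0.0765), Spry2 at -0.36 and Dusp6 at -0.29.

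Growth and matrix genes gave single calls. Igfbp5, a binding protein of insulin-like growth factors, had 239, 306 and 335 CPM after FGF1 and 166, 197 and 226 CPM after vehicle, without overlap (0.57 ± 0.117, edgeR FDR 0.00354), whereas with the tanycyte clusters summed it was not called. Col4a5, a basement membrane collagen, had 27.3, 36.1 and 38.7 CPM against 11.6, 18.8 and 26.3 CPM, without overlap (0.89 ± 0.193, FDR 0.00535). The D-type cyclins Ccnd1 and Ccnd2 rose by 0.72 and 0.38 (FDR 0.0276 and 0.045), and lost the call in 5 and 9 of the 12 fits without 1 mouse. No gene of DNA replication or mitosis on the cell cycle list was called, and Pcna was at 0.11. Of 16 antigen presentation and interferon genes none passed (median 0.48), nor did any of 15 cilium genes (median 0.22) or of 19 immediate early genes (median 0.25).

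The remaining lists had at most 1 call or divided calls, where 2.64% of all tested genes were called in each direction. Of 19 glycolysis genes Pgam1 rose (0.38, lost in 10 of the 12 fits without 1 mouse), and of 7 appetite and energy receptors only Gpr50. Of 12 glucocorticoid-responsive genes, Tsc22d3, which glucocorticoids induce, had 225, 276 and 326 CPM after FGF1 and 368, 369 and 446 CPM after vehicle, without overlap (-0.50, edgeR FDR 0.00685), at 1.40 times the outside level. With the tanycyte clusters summed it was not called (-0.28, FDR 0.0994). One gene fell in each of 8 tight junction and adhesion genes (Gjb6, a connexin of astrocytes, -0.90) and 10 transport genes (Slc6a6, which carries taurine, -0.59). Of 19 matrix and guidance genes, Col4a5 and Plat rose and Serpine2 fell (-0.52). No gene was called of 7 in TGF-beta and BMP signalling (median -0.16) or of the 13 encoded in the mitochondrion (median -0.11), and Vim was the only one of 7 tested genes of the intermediate filament list, which does not hold the neuronal filament genes Nefl (-1.31) and Ina (-1.29), both called lower.

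**Figure D5:**
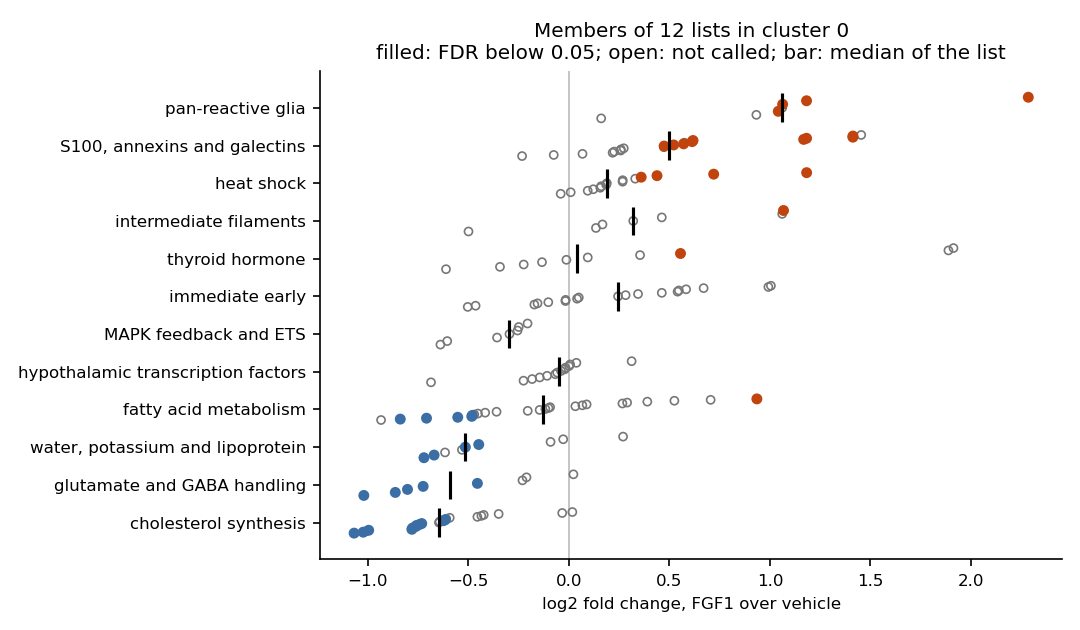
Members of 12 gene lists in cluster 0. The x axis is the log2 fold change of FGF1 over vehicle, each point is 1 tested gene, filled where the FDR was below 0.05 (orange higher, blue lower) and open where it was not, and the black bar is the median of the list. The cholesterol list lies almost wholly below 0 with 11 filled points, and the S100 list mostly above it with 9.

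Some ribosomal protein genes rose by small amounts. Of 78 tested, 31 rose, none fell and 47 were not called, 7 of all with values below 0, with a median of 0.29. Of all tested genes 2.64% rose. Rps4x had 1849, 2226 and 2379.6 CPM after FGF1 and 1164, 1349.7 and 1623 CPM after vehicle (0.65 ± 0.102, edgeR FDR 0.000243), and Rps9, Rpl7 and Rpl3 rose by 0.54, 0.58 and 0.55. None of these 4 overlapped between groups. The share of ribosomal UMIs in the median cell was 14.5% to 16.3% in FGF1 mice and 12.7% to 14.8% in vehicle mice, and the group means differed by 1.35 percentage points (exact two-sided permutation test, p = 0.00649, adjusted over 4 measures 0.0260). Without cells over 20% mitochondrial or ribosomal UMIs, the difference was 1.01 points and the adjusted p of this exact test was 0.0519, which does not pass. The filter removes cells by the measure tested, 35 to 140 per FGF1 mouse and 12 to 36 per vehicle mouse. So neither this difference nor a ribosomal count made with it can settle whether the rise held. Mitochondrial share, UMIs and genes per cell did not pass (adjusted p 0.307, 0.474 and 0.474). The count was 14 without cells over 20% mitochondrial or ribosomal UMIs, 20 with the tanycyte clusters summed, and between 16 and 20 without FGF1 mouse 7 or 10 or vehicle mouse 20, 25, 27 or 29. Of the 31, 30 were under 2 times the outside level. In the other tanycytes 8 of 77 rose in cluster 10 (median 0.24) and 3 of 78 in cluster 7 (median 0.15), and in ependymal cells 0 of 78 were called (median 0.22). Of all tested genes, 21 of 2159 rose in cluster 10, 39 of 4027 in cluster 7, 36 of 6734 in ependymal and 23 of 6329 in endothelial cells. In endothelial cells 0 of 78 were called (median 0.08), and the effect in cluster 0 was larger for Rps4x (difference 0.35 ± 0.0821, FDR 0.0259), Rps9 and Rpl7. Of 82 nuclear genes of oxidative phosphorylation, Ndufc2 and Cox7a2l rose, a share near that of all tested genes (2.64%), and the median was -0.03.

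The last question was whether the response was that of cluster 0 or of its neighbours too. The same 12 mice are behind every cluster, so values are set side by side. Vim had log2 fold changes of 1.06 in cluster 0, 1.00 in cluster 7, 0.74 in cluster 10 and 0.35 in ependymal cells, called in the first 3. S100a11 had 1.17, 1.15, 1.41 and 0.67 and Anxa2 0.62, 0.62, 0.67 and 0.55, called in all 4. Of the S100 list, 5 of 15 genes rose in cluster 7, 3 of 11 in cluster 10 and 4 of 17 in ependymal cells. Medians were 0.60, 0.38 and 0.31, and 1 gene fell in cluster 10. Of all tested genes there, 39 of 4027, 21 of 2159 and 36 of 6734 rose. In oligodendrocytes 6 of 13 rose (median 0.61) and in astrocytes 2 of 14 (0.17). Endothelial cells had 1 of 18 (0.24) and microglia 0 of 7 (-0.17). Of all tested genes in those, 40 of 7187, 17 of 7679, 23 of 6329 and 0 of 2676 rose. Hmgcs1 had -1.07 in cluster 0, -0.63 in cluster 7 (FDR 0.0686) and -0.97 in ependymal cells (FDR 0.0031), and of the cholesterol list 1 of 6 tested genes fell in cluster 7, 1 of 10 in ependymal cells, 1 of 13 in endothelial cells and 3 of 23 in astrocytes, where of all tested genes 39 of 4027, 50 of 6734, 37 of 6329 and 14 of 7679 fell. The medians of the list there were -0.46, -0.41, -0.36 and -0.55, beside -0.65 in cluster 0. In oligodendrocytes 0 of 21 fell and the median was -0.04.

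The difference between the effects was tested with the mouse as a block. Between cluster 0 and cluster 7, 0 of 9008 genes passed an FDR of 0.05 in edgeR, with 502 at an unadjusted p below 0.05, and DESeq2 called 1. Cluster 7 had 11 mice with enough cells. Between cluster 0 and cluster 10, 0 of 6105 passed, with 297 at an unadjusted p below 0.05, and DESeq2 called 0. Without single mice, 0 to 4 and 0 genes were called in the 2 comparisons. A count of 0 does not show that the clusters responded alike, since the smaller clusters had few cells in several mice.

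Against ependymal cells, 18 of 9088 genes (0.198%) differed in their FGF1 effect, 14 of them with a higher value in cluster 0. Vim differed by 0.67 ± 0.125 (FDR 0.000549), and Msn, which links membrane to actin, by 0.86 ± 0.163 (FDR 0.000550). Msn had 110.4, 124 and 158 CPM after FGF1 and 61.2, 81.6 and 98.2 CPM after vehicle in cluster 0 (0.67 ± 0.131, FDR 0.00205) and was at -0.20 in ependymal cells. Plat, tissue plasminogen activator, rose by 1.03 ± 0.266 in cluster 0, a call lost without FGF1 mouse 7 or 10, without vehicle mouse 20 or 25, without batch 5 and with the tanycyte clusters summed, and was at -0.65 in ependymal cells, a difference of 1.70 ± 0.258 (FDR 1.67e-06). Its level in cluster 0, at medians of 26.8 and 11.0 CPM, was 0.730 times the outside level. Pvalb (-1.95) and Creb5 (1.35) completed the 5 with the smallest FDR, and neither was called in cluster 0 itself. The number of such genes was 11 with DESeq2, 9 without vehicle mouse 20, 11 without vehicle mouse 29, 32 without FGF1 mouse 36 and 48 without vehicle mouse 22.

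Against endothelial cells, a comparison added after the data were seen, 40 of 9656 genes (0.414%) differed, 23 with a higher and 17 with a lower value in cluster 0. This balance turned to 12 and 17 with RLE scaling and to 9 and 16 without cells over 20% mitochondrial or ribosomal UMIs. Lgals1 (1.36), S1pr3 (1.37), Fabp7 (0.75) and Vim (0.51) were among the higher, and Glul (-0.76), Id2 (-0.64) and Slc6a6 (-0.64), the taurine transporter, among the lower. None of the cholesterol genes differed in this comparison, with Hmgcs1 at -0.58 (FDR 0.262). The number was 15 with DESeq2, 25 without cells over 20% mitochondrial or ribosomal UMIs, 13 without vehicle mouse 20, 15 without vehicle mouse 25, 16 without FGF1 mouse 21 and 25 without vehicle mouse 29.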

How the data were processed

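The authors sequenced dissociated hypothalami by droplet 3′ tags, counted UMIs with Cell Ranger 1.2 on GRCm38, removed doublets and clustered the cells in Seurat. By the paper, they also took out cells of the neuronal lineage, so shares of cells are shares of the cells kept. They deposited UMI counts of 16304 genes per cell, with the cluster, the batch and the percent of mitochondrial and ribosomal UMIs of each cell. The cells of cluster 0, and the gene lists, were chosen with earlier results of these data known. Counts were summed per mouse and tested with edgeR 4.0.16 (quasi-likelihood, TMM scaling, low counts filtered) in R 4.3.3, with Benjamini-Hochberg adjustment over all genes tested. Differences between clusters were fitted with the mouse as a block. Alternatives were RLE scaling, DESeq2 1.42.0, no filter, batch as a block, fewer cells, summed clusters and each mouse left out. The genes named were the markers, those with the largest folds at a mean of at least 20 CPM in each direction, up to 4 called members of each list in each direction, the 5 genes with the smallest FDR between clusters and, where described, further members of a list. The fits were tested on simulated data. P-values measure the spread between mice. Intervals of sampling depth were not computed for sums of 198865 UMIs or more. Promoter windows came from RefSeq. Some members of the lists are counted but not reported here by name.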

Additional observations from a re-analysis of the deposited data

Results flagged for a closer look

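Among 184 groups of 6 mice, 13 held a mouse whose gap to the next was unusually wide for the range of its group, where chance gives about 1 in 20. Vehicle mouse 35 stood apart in S100a11 (195 CPM, others 84.3 to 123), in S100a10 (296 CPM, others 173 to 218), in median UMIs per cell (1651, others 1102 to 1209) and in median genes per cell (886, others 647 to 693). FGF1 mouse 10 stood apart in median UMIs (2111, others 1084 to 1451) and in Pipox (67.1 CPM, others 19.4 to 36.1). Cxcl10 was high in FGF1 mouse 6 (47.9 CPM, others 5.92 to 14.9) and in vehicle mouse 22 (13.3 CPM, others 0 to 2.89). The other mice were FGF1 mouse 21 in 1500015O10Rik (46.6 CPM, others 88.8 to 101), vehicle mouse 25 in 3300002A11Rik (32.4 CPM, others 55.1 to 63.6), vehicle mouse 20 in Tsc22d3 (446 CPM, others 368 to 397), FGF1 mouse 28 in Glul (556 CPM, others 381 to 445) and vehicle mouse 27 in Slc1a2 (2634 CPM, others 2037 to 2253).

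The FGF1 effect in cluster 0 differed from that in ependymal cells (edgeR with the mouse as a block, FDR below 0.05) for Vim (difference of log2 fold changes 0.67), Cryab (0.81), Igfbp5 (0.58), Plat (1.70), Pvalb (-1.95), Creb5 (1.35) and Msn (0.86). It differed from that in endothelial cells for Vim (0.51), Lgals1 (1.36), S1pr3 (1.37), Fabp7 (0.75), Id2 (-0.64), Glul (-0.76), Sparcl1 (-0.36), Slc6a6 (-0.64), Rps4x (0.35), Rps9 (0.33) and Rpl7 (0.34).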

How the results depend on the processing

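Of 72 genes chosen by the naming rules and called in cluster 0, 49 kept their call under every alternative run. Further called genes described in the text, such as S100a6 and Sqle, are not among the 72. With single mice left out, the genes called higher ranged from 119 to 340 and those called lower from 115 to 413, the ribosomal genes called from 16 to 33, the fatty acid genes called lower from 1 to 7, and the genes whose effect differed from cluster 7, ependymal cells and endothelial cells from 0 to 4, 9 to 48 and 13 to 53. DESeq2 gave 1, 11 and 15 such genes. Without the low-count filter there were 8, 37 and 67, and 4 against cluster 10. Without cells over 20% mitochondrial or ribosomal UMIs, 25 genes differed from endothelial cells and 14 ribosomal genes were called, and 20 ribosomal genes with the tanycyte clusters summed. The causes of these shifts were not tested.

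Changes of sign occurred among genes that were not called. Dio2 turned to 0.0944 with DESeq2, 0.0717 without cells holding a microglia or macrophage marker UMI, 0.35 with clusters summed and 0.0563 without batch 5 (-0.27 to 0.16 without single mice). Lhx2 turned to -0.00188 with RLE scaling, -0.00612 with DESeq2, -0.0687 without cells over 20% and -0.0221 without batch 5 (-0.0704 to 0.0528 without single mice). Ppp1r1b turned to -0.0508 and -0.0191 under the 2 cell filters (-0.0748 to 0.17), Frzb to 0.12 and Vcan to 0.0773 with clusters summed (-0.21 to 0.0332 and -0.19 to 0.0400), and Col25a1 spanned -0.0345 to 0.53 without single mice. By replicate number, no paired analysis was possible because the whole-cell groups share none. Mice could be paired only by the authors' batch, 1 mouse of each group, and with the batch as a block the fit gave 257 higher and 256 lower genes. Among the genes chosen by the naming rules, Gpr50, 3300002A11Rik, Acsl3, Hspa8, Prdx6, Ccnd1 and Ccnd2 lost their call in it and Rax gained one. Batch mates deviated together, at a correlation over 0.1, in 1 of 6 batches (0.33 in batch 5). Some mice of different batches did too, such as FGF1 mouse 28 with vehicle mouse 25 (0.29). FGF1 mouse 7 with vehicle mouse 35 was another (0.23), and other such pairs went as low as -0.26. The median cell held 1285 UMIs, which limits what can be said of low genes in single cells.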
